A study of Mus musculus with 3 samples.

Results

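The 10 genes followed here belong to nitric oxide and angiotensin signalling and were measured in cultures labelled as mouse aortic endothelial cells, with or without Pim1: Nos3, Nos2, Gucy1a3, Gucy1b3, Pde5a, Prkg1, Ace, Agt, Agtr1a and Agtr2. They were found by their gene name in the array annotation, among the spots that are not controls, and accounted for 22 of 41174 probes and for 10 of 27745 gene names. RNA of knockout cells was labelled with Cy5 and RNA of wild-type cells with Cy3, and both were hybridised together to each of 3 two-colour arrays of 60-base oligonucleotides. Cells of both genotypes came from aortae of FVB/N mice described as female and 12 weeks old, were grown on gelatine and were collected 24 hours after seeding. The knockout is of Pim1, a serine/threonine kinase gene, and the labels leave unstated which sequence was deleted. The 3 arrays are labelled as biological replicates, but nothing says whether the wild-type RNA was 1 pool, so p-values reflect array-to-array spread alone, and 3 arrays limit the precision. All ratios are knockout over wild type, and dyes were not swapped.

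Nitric oxide is made from arginine by nitric oxide synthases, of which NOS3 is the endothelial form and NOS2 the form induced by inflammatory signals. It binds soluble guanylyl cyclase, a dimer of the proteins of Gucy1a3 and Gucy1b3 (Gucy1a1 and Gucy1b1 in current RefSeq naming), which then makes cyclic GMP. Cyclic GMP activates the kinase encoded by Prkg1, which relaxes smooth muscle, and is broken down by the phosphodiesterase encoded by Pde5a. In the angiotensin branch, angiotensinogen, the product of Agt, is cut by renin and then by angiotensin-converting enzyme, the product of Ace, to angiotensin II. Angiotensin II acts through the receptors encoded by Agtr1a, which mediates vasoconstriction, and Agtr2.

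The probe sequences show what was measured for both synthases and for the members whose calls turned on 1 probe. The Nos3 probe lies at chr5:23893883-23893942 and the Nos2 probe at chr11:78775853-78775912, both on the plus strand (mm8, the build of the array files). Capitals mark the bases that are the same when both are aligned without gaps, and 27 of 56 aligned bases (48.2%) are. The Pde5a probe maps to chr3:122831643-122833030 on the plus strand, a span of 1388 bases for 60 bases of probe, so it crosses a splice junction. The Agtr1a probe lies at chr13:30389344-30389403 on the plus strand.
Nos3: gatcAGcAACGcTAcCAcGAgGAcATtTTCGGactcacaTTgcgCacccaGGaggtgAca
Nos2: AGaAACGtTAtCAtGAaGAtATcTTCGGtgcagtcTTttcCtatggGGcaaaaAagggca
Pde5a: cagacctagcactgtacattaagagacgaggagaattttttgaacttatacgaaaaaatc
Agtr1a: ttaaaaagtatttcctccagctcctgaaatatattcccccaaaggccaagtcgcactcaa

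Most members were dim in these cells. The test took probes that the scanner software called well above background in either channel on at least 2 arrays, which 5 of the 22 member probes were, 1 each for Nos3, Pde5a, Ace, Agt and Agtr1a. The mean log2 ratio of each was tested against 0 with limma over all 25192 tested probes, with Benjamini-Hochberg adjustment and a threshold of 0.05. Of the 5 tested member probes 1 was called, that of Pde5a, which was lower in knockout cells. Over all tested probes 17.1% were called, 7.59% higher and 9.5% lower. Nos2, Gucy1a3, Gucy1b3, Prkg1 and Agtr2 were not tested, and for Nos2, Gucy1b3 and Agtr2 no probe was above background on any array in either channel.

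**Figure D1:**
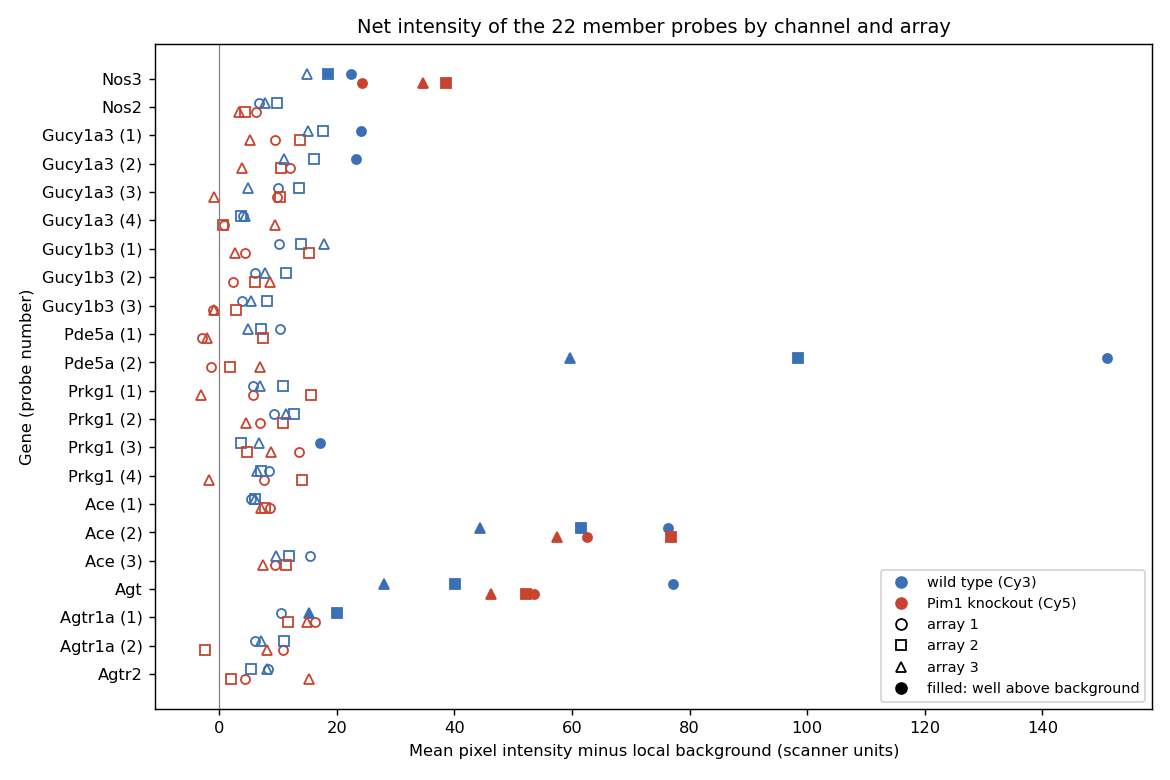
Net intensity (mean pixel intensity minus local background, in scanner units) of each member probe on each of the 3 arrays, in the wild-type (Cy3) and the knockout (Cy5) channel. Values are not normalised between the dyes. Filled points lay well above background on that array and open points did not. Most points are open, and the Pde5a probe at 151, 98.4 and 59.6 in wild-type cells lies near 0 in knockout cells.

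Pde5a was lower in knockout than in wild-type cells on all 3 arrays. Its net intensity, the mean pixel intensity minus local background in scanner units, was 151, 98.4 and 59.6 in wild-type cells on arrays 1, 2 and 3. In knockout cells it was -1.32, 1.84 and 6.98, and it was well above background on no array. Every wild-type value thus lay above every knockout value. Net intensities, here and below, were not normalised between the dyes, whereas the limma log2 ratios were. The log2 ratio was -2.00, -1.30 and -0.84, a mean of -1.38 ± 0.58 (SD, n = 3), with a limma 95% interval from -1.94 to -0.82 and an adjusted p of 0.0155. Because the knockout side was dim, the size is a bound set by detection. With knockout levels raised to at least the lowest level called above background in that channel, Pde5a was 2.45-fold lower in knockout cells. Mean channel levels after normalisation, which include an added offset of 50, were 174 in wild-type and 67 in knockout cells. The bound leaves out the spread between arrays, and array 3 alone gave a log2 ratio of -0.84. The probe passed the filter only through the wild-type channel. Without replicate 2 the ratio was -1.42 and the call was lost (adjusted p = 0.0933, limma). With an offset of 0 the mean log2 ratio of Pde5a was -2.83. The scanner software's own log ratio, which differs in more than the offset, gave a mean of -4.89 on the log2 scale.

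A second Pde5a probe, 63703 bases upstream by start and annotated to a cDNA clone, did not show this pattern and measured little in either genotype. The reason was not tested. Its net intensity was 10.4, 7.09 and 4.9 in wild-type cells and -2.89, 7.52 and -2.09 in knockout cells. It was above background on no array, so the change of Pde5a rests on 1 probe. Markers of smooth muscle cells and pericytes, a source of Pde5a in vessel walls, were also present: of 12 on the array, 10 were above background on all arrays in wild-type and 8 in knockout cells. Myh11 and Myocd were above background on no array in knockout cells. Of these, Myocd fell (mean log2 ratio -1.15, limma adjusted p = 0.00695). Myh11 lay near the detection limit in both genotypes and was not called (-0.04, limma adjusted p = 0.839). Its net intensities were 18.6, 19.2 and 17.1 in wild-type and 18.5, 17.9 and 13.7 in knockout cells. Des was above background in wild-type cells on 1 array only, and Rgs5 on none in either genotype. Of the 10 tested markers, 1 (Pdgfrb) rose and 4 fell, with a median log2 ratio of -0.82. The summed level of the list after normalisation, without the offset, of which Acta2 and Pdgfrb made up most, ran from 55000 to 67200 in wild-type and from 56200 to 59100 in knockout cells. Their part in the difference of Pde5a was not tested. In RNA from whole cultures, fewer cells of a type and less RNA per cell cannot be told apart.

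The genes whose 3 log2 ratios lay nearest to those of Pde5a, by Euclidean distance among 13486 other tested genes, were Krt33a (distance 0.123), Cilk1 (0.189) and Hoxaas2 (0.232). The distances were computed only on ratios with the offset of 50, where the dim knockout side limits those of Pde5a. The order was not shown to hold for other ratios. The mean log2 ratio of Krt33a, a hair keratin gene, was -1.39, and like Pde5a it was above background in wild-type cells on all arrays and in knockout cells on none. Those of Cilk1, a kinase gene, and Hoxaas2, a HoxA antisense transcript, were -1.45 and -1.48. In the scanner software's log2 ratios Pde5a stood at -5.68, -4.73 and -4.27 and Krt33a at -5.82, -4.66 and -4.66, whereas Cilk1, bright in both genotypes, stood at -2.36, -1.59 and -1.38.

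Nos3 was near the detection limit in both genotypes and its difference did not pass the test. Its probe is printed at 10 spots per array. The mean net intensity over those spots was 22.5, 18.5 and 15 in wild-type cells. In knockout cells it was 24.3, 38.5 and 34.7. Before normalisation between the dyes, the knockout value was above the wild-type value of the same array on all 3 arrays. On array 1 it was so by less than the SD between spots. Of the 10 wild-type spots, 9, 6 and 4 were well above background on arrays 1, 2 and 3, and of the 10 knockout spots 6, 10 and 9. Single spots varied with SDs of 6.02, 4.86 and 2.9 in the wild-type channel and of 6.39, 9.16 and 8.89 in the knockout channel. The log2 ratio was 0.01, 0.34 and 0.19, a mean of 0.18 ± 0.17 (SD, n = 3), with an interval from -0.09 to 0.44 and an adjusted p of 0.325 by limma. With an offset of 0 in place of 50, the mean of Nos3 was 0.41 (limma adjusted p = 0.181). In the scanner software's log ratio, which differs in more than the offset, the mean of Nos3 was 1.03 (limma adjusted p = 0.0639).

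The labelled cell type bears on Nos3. Of 16 endothelial markers on the array, 6 were above background on all arrays in wild-type and 4 in knockout cells. Flt1, Fli1, Eng and Egfl7 were so in both genotypes, and Kdr and Esam in wild-type cells. In knockout cells Kdr was above background on 1 array and Esam on 2. Neither was called (mean log2 ratios -0.23 and -0.17, limma adjusted p = 0.23 and 0.315). Pecam1, Cdh5, Tie1, Erg and Sox17, all defining endothelial genes, were above background on no array in either genotype, and Tek, Vwf, Emcn, Cldn5 and Robo4 in wild-type cells on 1 array only. The summed normalised level of the list ran from 4260 to 4900 in wild-type and from 7990 to 10800 in knockout cells. Flt1, Eng and Egfl7 made up most of that sum, and Flt1 was not called (mean log2 ratio 0.27, limma adjusted p = 0.566). Of 6 tested markers 2 rose, Eng (mean log2 ratio 2.51) and Egfl7 (1.42), and 1 fell, Fli1 (-0.87). Their part in the level of Nos3 was not tested. The label was therefore not borne out by most of these markers, and the cells are called by their genotype here.

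Nos2 was not detected. Its probe, also printed at 10 spots, gave mean net intensities, over spots not marked as outliers, of 6.73, 9.77 and 7.85 in wild-type cells and of 6.28, 4.35 and 3.46 in knockout cells. No spot of it was above background on any array, so its ratio carries no information on a difference.

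**Figure D2:**
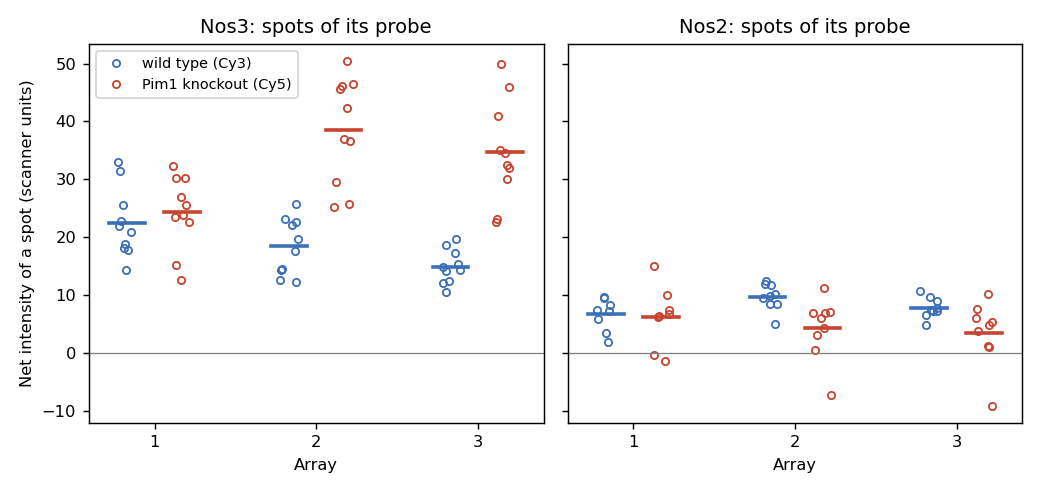
Net intensity of the single spots of the Nos3 and Nos2 probes on each array, in scanner units, for wild-type (Cy3) and knockout (Cy5) channels. Values are not normalised between the dyes. Spots that the software marked as outliers are left out, and bars are means. The Nos3 means are 22.5, 18.5 and 15 in wild-type and 24.3, 38.5 and 34.7 in knockout cells, while Nos2 stays below 10 on average on every array.

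The nitric oxide receptor and its kinase were at the lower end of detection. Of 4 Gucy1a3 probes, 2 were above background in wild-type cells, on 1 array each, and none in knockout cells. The brighter gave 24.1, 17.6 and 15.1 in wild-type and 9.49, 13.7 and 5.25 in knockout cells, with log2 ratios of -0.28, -0.05 and -0.17. The other gave 23.2, 16.2 and 11 in wild-type and 12, 10.6 and 3.84 in knockout cells, with log2 ratios of -0.22, -0.08 and -0.10. Both were thus lower in knockout cells on all 3 arrays, but neither met the filter. Tested with no filter on dim probes, neither was called (limma adjusted p = 0.269 and 0.31). The 3 probes of Gucy1b3, which lies 58557 bases from Gucy1a3 by nearest probe starts, were never above background, with net intensities from 3.93 to 17.9 in wild-type and from -1.02 to 15.2 in knockout cells. Of 4 Prkg1 probes, spread over 1177012 bases of this long gene, 1 was above background, in wild-type cells on 1 array at 17.2. The mean log2 ratios of the Prkg1 probes ran from -0.04 to 0.05.

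In the angiotensin branch, Ace and Agt were above background in both genotypes on every array and neither passed the test. Ace had net intensities of 76.4, 61.6 and 44.3 in wild-type and of 62.5, 76.9 and 57.4 in knockout cells. The genotypes overlapped, and the direction on array 1 was opposite to that on array 2. The log2 ratio of Ace was -0.33, 0.16 and -0.06, a mean of -0.08 ± 0.24 (SD, n = 3), with an interval from -0.39 to 0.23 and an adjusted p of 0.733 by limma. The probe lies at chr11:105805174-105805233, and the other 2 Ace probes were never above background.

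Agt, like Ace, was lower in knockout cells on array 1 and higher on array 2. Its net intensity was 77.2, 40.1 and 28 in wild-type and 53.6, 52.2 and 46.3 in knockout cells, at chr8:127442851-127442910 on the minus strand. The log2 ratio was -0.44, 0.17 and 0.08, a mean of -0.06 ± 0.32 (SD, n = 3), with an interval from -0.43 to 0.30 and an adjusted p of 0.814 by limma. Without replicate 1, both means changed sign, to 0.05 for Ace and 0.12 for Agt. Over all probes, array 1 correlated less with arrays 2 and 3 (r = 0.680 and 0.699) than these did with each other (r = 0.905); probes are not independent replicates.

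The receptor genes were dimmer. Agtr1a was above background on 2 arrays in wild-type cells and on none in knockout cells, with net intensities of 10.6, 20 and 15.2 in wild-type and 16.3, 11.7 and 14.9 in knockout cells. The values overlapped. The log2 ratio was 0.13, -0.13 and -0.05, a mean of -0.02 ± 0.13 (SD, n = 3), with an interval from -0.27 to 0.24 and an adjusted p of 0.937 by limma. This result depends on the ratio used. In the scanner software's log ratio, which differs in more than the offset, Agtr1a stood at -0.86, -1.95 and -1.52 on the log2 scale. There it was called, at a limma adjusted p of 0.0145. With an offset of 0 the mean was 0.01 (limma adjusted p = 0.981), and with no background subtraction -0.17 (0.335). Why the software's ratio differed was not tested. A second Agtr1a probe 890 bases away was never above background. The single Agtr2 probe, at chrX:20645397-20645456, gave 8.37, 5.43 and 8.06 in wild-type and 4.35, 1.97 and 15.3 in knockout cells and was never above background.

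**Figure D3:**
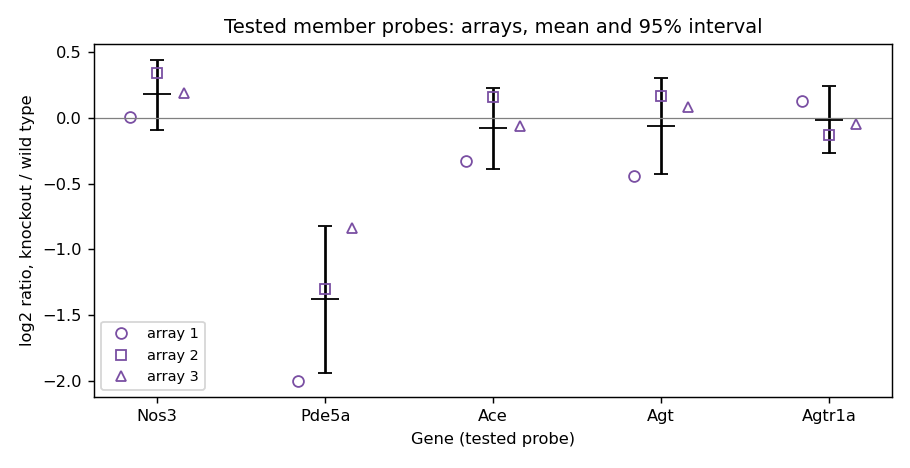
Log2 ratio, knockout over wild type, of the 5 tested member probes on arrays 1, 2 and 3 (symbols), with the mean (short line) and its limma 95% interval (bar). Pde5a stands at -2.00, -1.30 and -0.84, Nos3 at 0.01, 0.34 and 0.19, and the ratios of Ace, Agt and Agtr1a lie on both sides of 0.

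The 17 member probes that were not tested ranged from 3.75 to 24.1 in wild-type and from -3.16 to 15.7 in knockout cells, with mean log2 ratios from -0.17 to 0.09, or from -1.59 (a Gucy1a3 probe) to 0.58 (Agtr2) in the scanner software's ratios. Of these, 14 were never above background and 3 were above it in wild-type cells on 1 array. With an offset of 50, such ratios are drawn towards 0, so a difference was not detectable at this signal.

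Further genes of the same pathways, 80 in all, gave more signal, and 62 of the 79 on the array were tested. Of these 9 rose and 9 fell in knockout cells, which is 29% against 20.1% of all 13487 tested genes (8.66% higher and 11.4% lower). The median log2 ratio of the 62 was -0.07 against -0.02 over all genes. The list was chosen with earlier results of these data known, so its share of calls is not a test of the pathways. All 18 had the same sign on all 3 arrays, 15 were above background in both genotypes on every array, and 7 differed at least 2-fold, 5 higher and 2 lower. With median centring in place of loess, which moved the median of all genes from -0.02 to 0.08, 7 rose and 2 fell, which is 14.5% of the 62 against 13.8% of all genes.

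Among regulators of the synthases, Cav1, which encodes the caveolar protein that binds and restrains NOS3, was the 1 called gene of 8. Its log2 ratio was -1.07, -1.10 and -0.80, a mean of -0.99 ± 0.17 (SD, n = 3), with an adjusted p of 0.00455, and its other probe gave -0.66 (adjusted p = 0.0172, limma). The call was lost without replicate 2 (adjusted p = 0.055) and with median centring (0.0528).

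Genes that supply the synthases with substrate and cofactor changed in both directions, with 2 of 12 higher and 2 lower. Gchfr, which encodes the feedback regulator of GTP cyclohydrolase, fell, with log2 ratios of -2.68, -1.93 and -2.20, a mean of -2.27 ± 0.38 (SD, n = 3) and an adjusted p of 0.00121 by limma. Gch1, the cyclohydrolase itself and the first step to the cofactor tetrahydrobiopterin, rose, with log2 ratios of 0.94, 1.62 and 1.24, a mean of 1.27 ± 0.34 (SD, n = 3) and an adjusted p of 0.00601 by limma. A second Gch1 probe gave 0.40 and was not called (adjusted p = 0.0845, limma), and the Gch1 call was lost without replicate 3 (0.0659). Ass1, which rebuilds arginine from citrulline, rose by a mean log2 ratio of 0.98 ± 0.31 (SD, n = 3; limma adjusted p = 0.0112), and was not called without replicate 2 (0.081) or without replicate 3 (0.102). Arg1, an arginase that competes for arginine, was above background in wild-type cells on 2 arrays and in knockout cells on none. Its mean log2 ratio was -0.54, or 1.45-fold lower in knockout cells, with a limma 95% interval from -0.86 to -0.22 (adjusted p = 0.0439). This size is limited by the dim knockout side. Arg1 passed the filter only through the wild-type channel, and the call was lost with median centring (0.0713) and with no filter (0.0646). Macrophage and leukocyte markers, from cells that can express Arg1, were summed after normalisation. The sum ran from 3320 to 4580 in wild-type and from 1970 to 2320 in knockout cells, and Cd14 made up most of it. Of 10 such markers 4 were never above background. Of 5 tested 2 fell, Cd14 (mean log2 ratio -0.87) and Lyz2 (-1.78). Cd68 (0.00), Csf1r (-0.31) and Mrc1 (-0.20) were not called. The part of these markers in the Arg1 difference was not tested.

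The 12 phosphodiesterase genes listed other than Pde5a, a chosen part of the family, gave 3 higher and 3 lower of 9 tested. That is 66.7% called against 20.1% of all tested genes. Because earlier results of these data were known when the genes were chosen, the share does not describe the family. Pde1a, which encodes a calcium- and calmodulin-activated enzyme for both cyclic nucleotides, had log2 ratios of 1.81, 2.33 and 1.61, a mean of 1.91 ± 0.37 (SD, n = 3) and an adjusted p of 0.00199 by limma. All 4 Pde1a probes were called, the other 3 between 1.35 and 1.75. Pde4b, a cyclic AMP phosphodiesterase gene, had a mean of 1.69 ± 0.44 (SD, n = 3; limma adjusted p = 0.00414), with the call lost without replicate 3 (0.0536). Pde9a, whose enzyme is selective for cyclic GMP as that of Pde5a is, moved in the same direction as Pde5a, with log2 ratios of -2.21, -1.10 and -1.35, a mean of -1.55 ± 0.59 (SD, n = 3) and an adjusted p of 0.0111 by limma. The Pde9a call was lost without replicate 3 (0.0757). Pde3b rose by 0.56 ± 0.19 (SD, n = 3; limma adjusted p = 0.0267), and Pde10a and Pde3a had means of -0.50 and -0.44. The Pde3b call was lost with median centring (0.0588), without replicate 2 (0.108) and without replicate 3 (0.166).

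Guanylyl cyclases, natriuretic peptide receptors and their peptides gave no call by limma among 7 tested genes, with 1 at an unadjusted p under 0.05. That gene was Nppc, which with Nppa and Nppb is a peptide gene of the list, not a cyclase or receptor gene. Of 6 effectors of cyclic GMP, 1 fell: Prkg2, which encodes the other cyclic GMP-dependent kinase, with log2 ratios of -0.53, -0.40 and -0.41 and a mean of -0.44 ± 0.07 (SD, n = 3; limma adjusted p = 0.0315). It thus differed less than 2-fold, and its second probe gave -0.58.

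Of 10 genes for angiotensinogen cleavage and angiotensin breakdown, 1 rose and 1 fell. Prcp, which encodes a carboxypeptidase that cleaves angiotensin II, had log2 ratios of 1.24, 1.40 and 1.41, a mean of 1.35 ± 0.10 (SD, n = 3) and an adjusted p of 0.00125 by limma, and its second probe gave 1.56. Rnpep, aminopeptidase B, had a mean of -0.61 ± 0.23 (SD, n = 3; limma adjusted p = 0.0261). The renin genes Ren1 and Ren2 were not tested because their signal was too low.

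Receptors and their partners gave 3 higher and 1 lower of 10. Bdkrb1, the kinin B1 receptor gene, rose, with log2 ratios of 2.03, 1.72 and 1.13, a mean of 1.63 ± 0.46 (SD, n = 3) and an adjusted p of 0.00521 by limma. Its net intensities were 109, 85.5 and 67.7 in wild-type and 799, 437 and 347 in knockout cells. Kng1, the kininogen gene whose product is the source of kinins, had a mean of 0.93 ± 0.58 (SD, n = 3; limma adjusted p = 0.0442), and its call was lost without replicate 2 (0.188), without replicate 3 (0.215) and with no filter on dim probes (0.0918). Arrb2, an arrestin gene, rose by 0.53 ± 0.22, and Gnaq, the G protein gene that couples the angiotensin receptor to calcium release, had a mean of -0.45 ± 0.16 (SD, n = 3). Rgs2, an inhibitor of this G protein, was not called at log2 ratios of -0.01, -1.78 and -1.85 (limma adjusted p = 0.0868), with array 1 apart from the others. Agtr1b, Mas1 and Bdkrb2 were not tested.

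**Figure D4:**
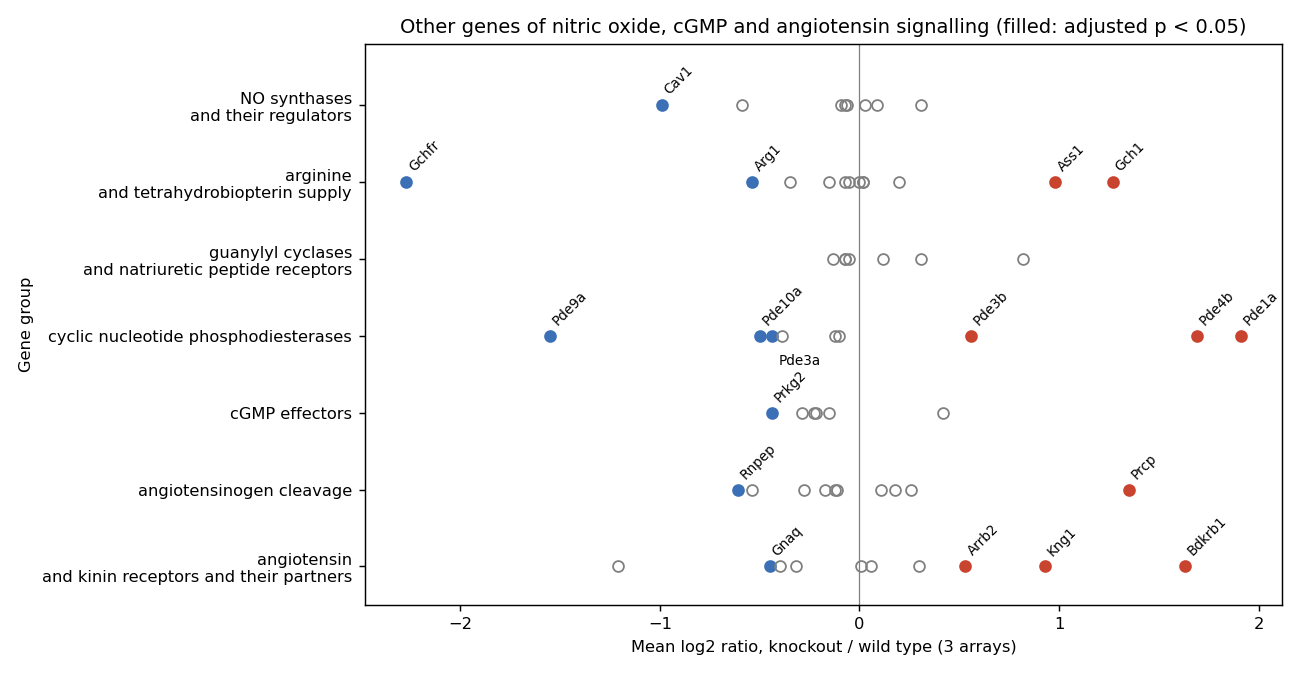
Mean log2 ratio, knockout over wild type, of the 62 tested further genes, by group; filled points are called at an adjusted p under 0.05 (red higher, blue lower) and are named. Gchfr at -2.27 and Pde1a at 1.91 are the outermost points, and no guanylyl cyclase or natriuretic peptide receptor gene is filled.

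The labels were checked in the same data. The Pim1 probe gave net intensities of 248, 323 and 161 in wild-type and of 134, 118 and 78.9 in knockout cells, above background on all arrays in both, with a mean log2 ratio of -1.04 and an adjusted p of 0.00294 by limma. Whether it lies in the deleted sequence is not stated. Although both genotypes are labelled female, Xist was at least 168-fold lower in knockout cells and the Y-linked Eif2s3y and Ddx3y at least 28.1-fold and 12.1-fold higher, so sex and genotype cannot be told apart in any value above. Other cell markers moved with genotype as well: of 11 tested fibroblast markers 8 rose and 1 fell, and of 10 tested mesothelial and epithelial markers 7 fell, from summed normalised levels between 80000 and 100000 to between 10700 and 13700. Their part in the results was not tested. Well above background were 58.4% to 62.5% of probes in the wild-type and 53.8% to 57.2% in the knockout channel.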

How the data were processed

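The members and gene lists were chosen with earlier results of these data known. Mean and median pixel intensity, local background and processed intensity in both channels, and a log10 ratio of red over green, were deposited by the authors. They come from Agilent Feature Extraction (version 9.5.3.1 in the submitters' processing notes), per the file headers. The same log10 ratio filled the deposited value table (largest difference 0 on every array, column medians 0).

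Mean intensities were background-corrected with normexp (offset 50) and normalised within arrays by loess, with control and outlier-flagged spots at weight 0. Spots of a probe were averaged. A probe counted as above background where at least 0.5 of its spots did. Ratios were tested with limma 3.58.1 in R 4.3.3. The same steps were also run on simulated data, whose spread was taken without array 1. Each gene took the values of its brightest tested sense probe, named through RefSeq (GRCm38.p6, names only; 8070 of 41174 probes unnamed), and 294 antisense probes were left out. Bounds used channel levels after loess and Aquantile, with a dim level raised to at least the lowest level called above background in its channel. They leave out the spread between arrays. Wild-type RNA was the reference on every array, so the spread among wild-type samples was not measured separately. All arrays shared 1 slide and 1 scan. All members were named, with up to 4 called genes per pathway group by size (others to complete a group), Pim1, sex-linked genes, markers by detection and the 3 nearest genes to Pde5a. Rgs2 was added after its values were seen. Alternatives changed the background, offset, normalisation, filter, weights, variance model, threshold or replicates.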

Additional observations from a re-analysis of the deposited data

How the results depend on the processing

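The count of called member probes was 1 and became 2 with the software's log ratio and with the deposited value table, which add Agtr1a (-1.45). It became 0 at an adjusted p under 0.01 (1 at an unadjusted p under 0.05), 0 of 2 tested with a filter on both channels, which leaves out Pde5a (0 at an unadjusted p under 0.05), and 0 to 1 without 1 replicate; limma was the only tool run. Of the further pathway genes 18 were called, 9 with median centring, 7 at 0.01 and 5 to 30 without 1 replicate. Over all genes 2712 were called, 4419 with array weights, 965 at 0.01 and 621 to 5570 without 1 replicate. Over all probes 4305 were called, 2710 with median centring, 7211 with array weights, 1381 at 0.01 and 850 to 9101 without 1 replicate. For probes, genes and pathway genes the highest count came without replicate 1, the array that correlated least with the others. Of called genes 43.1% were higher, 55.5% with median centring. Among the 5 tested member probes, means that changed sign were those of Ace (-0.19 to 0.05 without 1 replicate), Agt (0.05 with array weights, -0.18 to 0.12 without 1 replicate) and Agtr1a (0.01 with an offset of 0, -0.09 to 0.04 without 1 replicate); the cause was not tested. Gchfr, Pde1a, Prcp and Bdkrb1 kept their calls in all 17 alternatives, whereas Prkg2 lost its call in 6, Rnpep in 5, Arrb2 in 7 and Gnaq in 7. These alternatives are not all separate checks. Aquantile between arrays leaves the ratios as they were. The software's log ratio and the deposited value table hold the same values, so an outcome there counts under both. No paired analysis was possible because the test already uses the ratio within each array, which leaves no further block. Low signal over background kept 17 of 22 member probes out of the test, and none of them was called with no filter.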
